A study of Mus musculus with 8 samples.

Results

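This section describes 10 genes of the NRF2 antioxidant response in mouse liver: Nfe2l2, Nqo1, Gclc, Gclm, Srxn1, Txnrd1, Hmox1, Slc7a11, Prdx1 and G6pdx. They were taken by gene symbol from the 47719 genes of the deposited expression table, and each symbol matched 1 row. RNA from C57BL/6 wild type liver was sequenced in 8 libraries. The normal control group held 2 libraries from mice aged 10 weeks. The operated mice had undergone extended hepatectomy, in which the larger share of the liver is cut out, and gave 4 libraries at day 2 and 2 libraries at day 14. The study concerns encapsulated human hepatocyte organoids given in liver failure, and its design text names EMC, the treated control, and eLO at day 2 and eLO alone at day 14. The labels do not assign the day 2 libraries to EMC or eLO, and all 4 were treated as 1 group. Against control, surgery, time and treatment therefore cannot be told apart, and between day 14 and day 2, both after surgery, time and treatment cannot. For day 2 replicate 1 the title gives day 1 and the age label day 2, and the age of the operated mice in weeks is not labelled. The title of day 2 replicate 3 alone adds TVR, a mark that the labels do not explain. Its column header also carries further marks, PHX among them, that no other header has and that the labels do not explain. The labels do not say whether the libraries within a group are from different mice, so a p-value here speaks only of how far these libraries spread.

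NRF2, the protein of Nfe2l2, is a transcription factor that is held in the cytoplasm and sent for degradation by the adaptor KEAP1 with the CUL3 ubiquitin ligase. When electrophiles or oxidants modify KEAP1, NRF2 accumulates, pairs with small MAF proteins and binds antioxidant response elements. Its targets make glutathione, keep thioredoxin and peroxiredoxin reduced, form NADPH and break down haem and quinones, and in liver they are known for protection against reactive drug metabolites. Because NRF2 is controlled mainly through protein stability, the level of Nfe2l2 RNA is not a measure of its activity.

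The core of the antioxidant response element, TGACNNNGC, was looked for on both strands in promoter windows of 300 bases, from 250 bases before to 50 bases after each start site, in a RefSeq table on GRCm38.p6. Of the 10 genes 8 had an entry, with 10 windows in all, while Gclc and Hmox1 had none. A match lay in 6 windows of 6 genes, against 12.4% of all 32851 windows and 14% of 27025 genes. The matches are printed because the results turn on how these genes differ from each other, with the element in capitals, 5′ to 3′ on the strand of the gene.
Nfe2l2: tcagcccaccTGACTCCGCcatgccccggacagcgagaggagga
Gclm: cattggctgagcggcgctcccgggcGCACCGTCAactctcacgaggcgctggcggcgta
Prdx1: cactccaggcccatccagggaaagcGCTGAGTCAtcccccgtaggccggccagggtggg
Txnrd1: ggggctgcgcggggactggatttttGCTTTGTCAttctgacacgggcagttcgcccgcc
G6pdx: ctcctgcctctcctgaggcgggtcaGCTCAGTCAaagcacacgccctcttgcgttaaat
Srxn1: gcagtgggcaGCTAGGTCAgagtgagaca
These stretches lie at chr2:75704870-75704913 (minus strand), chr3:122245398-122245456 (plus), chr4:116685441-116685499 (plus), chr10:82859089-82859147 (plus), chrX:74428904-74428962 (minus) and chr2:152105542-152105570 (plus), in the order printed. The Nfe2l2 match reads forward and the other 5 as the reverse complement. The near end of the match is 232 bases before the start site in Nfe2l2, 126 in Gclm, 125 in Prdx1, 84 in Txnrd1 and 49 in G6pdx, and in Srxn1 the match begins at base 29 after it. The Txnrd1 match is in 1 of its 3 windows. The Prdx1 match overlaps TGAGTCA, the site of AP-1 factors, which on either strand lay in 5.2% of all windows. No match was in the windows of Nqo1 and Slc7a11, which says only that these letters are not in those windows. A match is a stretch of letters and no evidence of binding.

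Values are FPKM, sequenced fragments scaled by transcript length and by library, so levels of different genes can be set side by side per length. Total FPKM ran from 686332 to 1298005 per library. Read counts are unknown, and the lowest values gave relative depth scales from 0.63 in day 14 replicate 1 to 1.14 in day 2 replicate 4, with control replicate 1 at 1. The summed level of 9 hepatocyte markers lay between 53711 and 94080 FPKM in all libraries, with albumin the most abundant. Day 2 was not uniform: 6 cycling genes summed to 2.88 and 2.05 FPKM in replicates 1 and 2, to 474 and 673 FPKM in replicates 3 and 4, and to 7.63 and 9.47 FPKM in the controls. Short transcripts stood higher than long ones against control in every operated library, by 0.62 to 0.93 log2 units between the shortest and the longest eighth of 12307 genes. Removal of a trend with length and GC content was therefore 1 of the alternatives. In bulk liver, fewer cells of a type and less RNA per cell cannot be told apart.

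**Figure D1:**
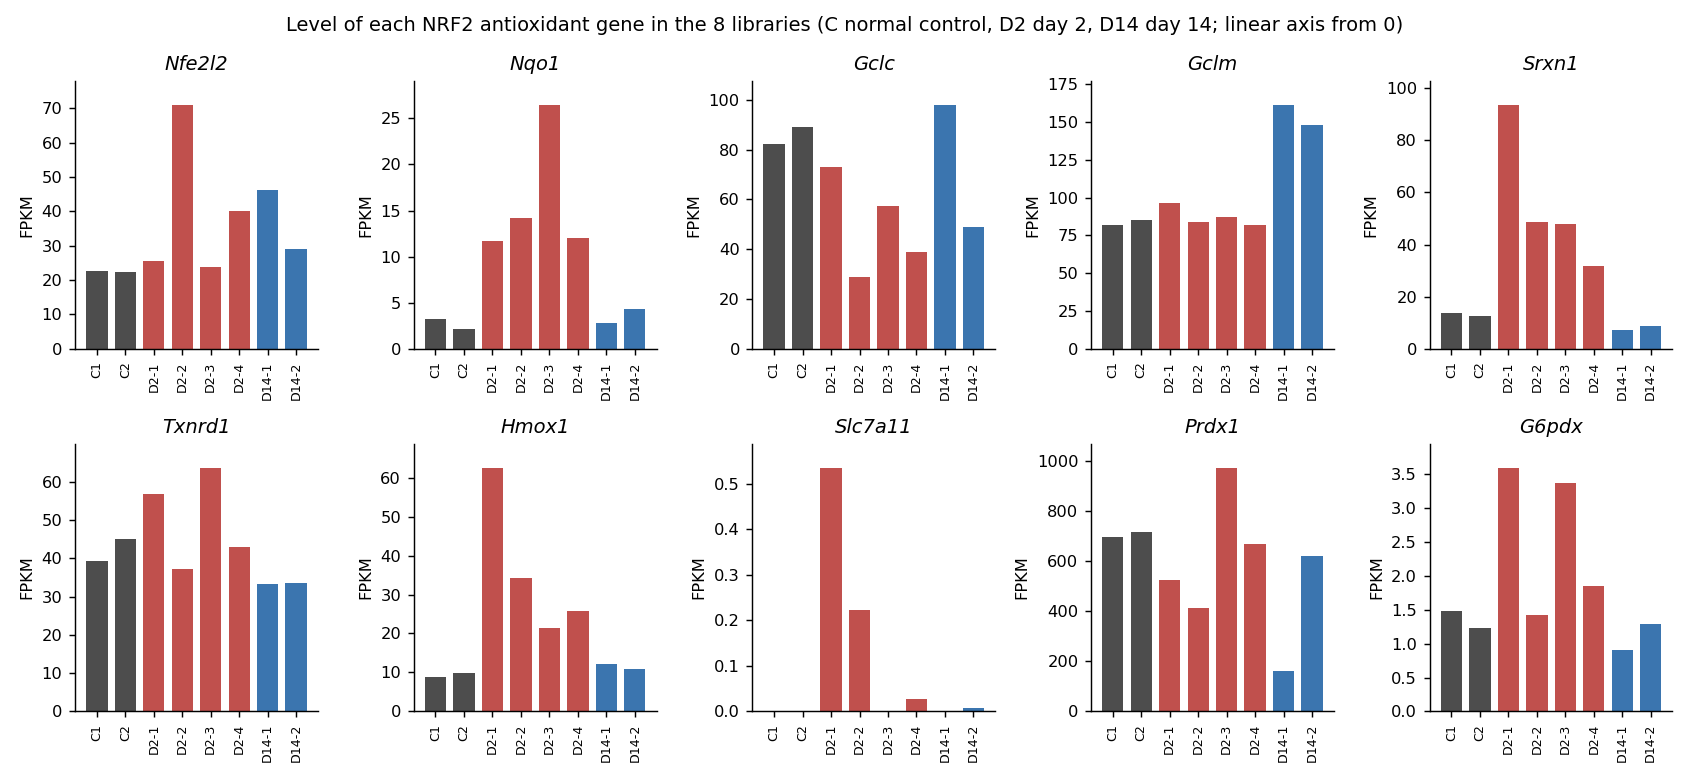
Level of each of the 10 genes in FPKM (vertical axis, linear from 0, 1 scale per gene) in the 2 normal control (C), 4 day 2 (D2) and 2 day 14 (D14) libraries, 1 bar per library. Nqo1, Srxn1 and Hmox1 stood above both controls in all 4 day 2 libraries, and Gclm was highest in the 2 day 14 libraries.

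In control liver the levels of these genes spanned a wide range. Prdx1, a peroxiredoxin that removes hydrogen peroxide, was the most abundant at 706 ± 16.1 FPKM (SD, n = 2), above 99.0% of the 12340 genes tested. Gclc and Gclm, the catalytic and modifier subunits of glutamate-cysteine ligase, followed at 85.7 ± 4.94 and 83.4 ± 2.2 FPKM, a difference no larger than the spread between the controls. Next stood Txnrd1 at 42.2 ± 4.19 and Nfe2l2 at 22.5 ± 0.295 FPKM. Srxn1 was at 13.1 ± 0.866 and Hmox1 at 9.32 ± 0.734 FPKM. The low end held Nqo1 at 2.66 ± 0.798 and G6pdx at 1.36 ± 0.173 FPKM, and Slc7a11 was listed at 0 in both controls. Of the 10 genes 9 entered the tests, which needed 2 libraries or more at 1 FPKM or above. Among these 9, 8 exceeded 1 FPKM in all 8 libraries and G6pdx in 7, so none entered through a high day 2 level alone.

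Against control, 3 of the 9 tested genes rose at day 2, Nqo1, Srxn1 and Hmox1, and none fell (limma on log2(FPKM + 1), Benjamini-Hochberg adjusted p under 0.05; 3 higher and 0 lower at an unadjusted p under 0.05). Over all 12340 genes tested 21.2% were called in this comparison, 9.72% higher and 11.5% lower. The median log2 change was 0.54 over the 9 genes and 0.05 over all genes tested. The other 6, Nfe2l2, Gclc, Gclm, Txnrd1, Prdx1 and G6pdx, did not pass. Groups did not overlap in 4 genes in the higher direction and in 1, Gclc, in the lower direction, where 26.1% and 25.4% of all genes did so, 51.5% in either direction. Calls in this comparison rest on both controls: without either of them none of the 3 genes passed, at limma adjusted p from 0.0667 to 0.157, while their log2 changes stayed between 1.65 and 2.38. Without day 2 replicate 3, whose title adds TVR, the 3 calls held, at 1.91, 1.92 and 1.92 log2 units for Nqo1, Srxn1 and Hmox1.

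Nqo1, a quinone reductase that is a standard readout of NRF2, lies on chromosome 8 of GRCm38 at 107388225 to 107403206. Its level was 3.23 and 2.1 FPKM in control replicates 1 and 2. At day 2 it was 11.7, 14.2, 26.4 and 12 FPKM, replicates 1 to 4 in turn. All 4 day 2 libraries lay above both controls, and replicate 3 was the highest. The mean at day 2 was 6.04 times that in control, and the log2 change was 2.16 ± 0.35 (SE; limma adjusted p = 0.0071).

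Srxn1, sulfiredoxin, restores over-oxidised peroxiredoxins and lies on chromosome 2 at 152105516 to 152111376. The controls were at 13.7 and 12.5 FPKM. The day 2 libraries were at 93.4, 48.7, 47.8 and 31.6 FPKM in replicates 1 to 4. Every day 2 library was above both controls, with replicate 1 highest and replicate 4 lowest. This was a ratio of means of 4.22 and a log2 change of 1.89 ± 0.38 (limma adjusted p = 0.0136).

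Hmox1, haem oxygenase 1, opens haem to biliverdin, iron and carbon monoxide and lies on chromosome 8 at 75093621 to 75100589. It is expressed in macrophages, which clear old red cells, as well as in stressed hepatocytes. Control levels were 8.80 and 9.84 FPKM. Day 2 replicates 1 to 4 had 62.4, 34.2, 21.4 and 25.7 FPKM, all above control and again highest in replicate 1. The ratio of means was 3.85 and the log2 change 1.72 ± 0.39 (limma adjusted p = 0.0199). The 3 genes rose in different orders over the libraries, since Nqo1 was highest in replicate 3 and the other two in replicate 1.

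**Figure D2:**
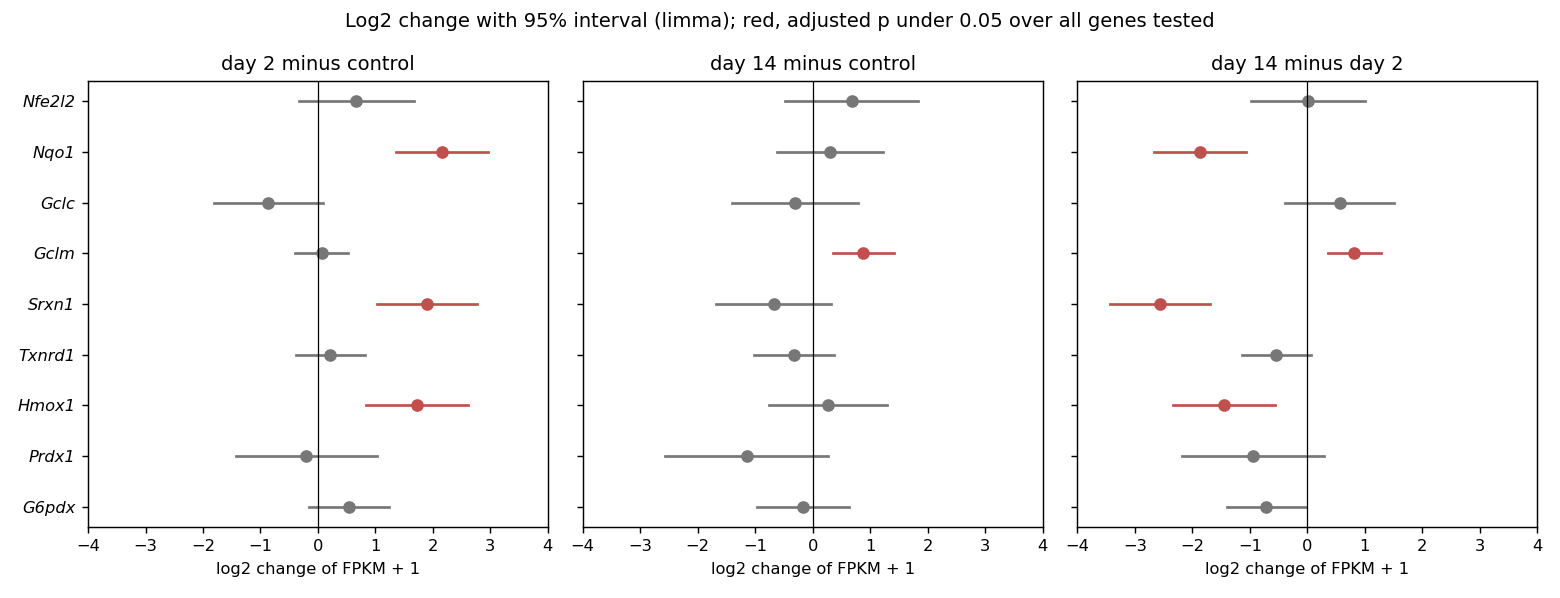
Log2 change of FPKM + 1 (horizontal axis) with its 95% interval from limma for the 9 tested genes (rows) in the 3 comparisons (panels), red where the adjusted p over all genes was under 0.05. Nqo1, Srxn1 and Hmox1 are red and positive for day 2 against control and red and negative for day 14 against day 2, while Gclm is red and positive in both comparisons of day 14.

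Markers of myeloid cells are given beside Hmox1. The 14 Kupffer cell and macrophage markers summed to 202 to 243 FPKM in control, 234 to 449 at day 2 and 93.5 to 107 at day 14. Marco and Cd14 together held 16.5% to 58.1% of the sum at day 2, at 38.6 to 261 FPKM against 3.13 to 3.63 in control. Of the other 12, Cd68 stood above both controls in all 4 day 2 libraries (8.44 to 26.5 against 6.72 and 7.62 FPKM). Adgre1 and Csf1r stood under both. Together the 12 summed to 199 to 240 FPKM in control and 188 to 267 at day 2, groups that overlap, with day 2 replicate 4 above both controls. Marco and Cd14 were set aside after their values had been seen, so this overlap is no test. At day 2 against control Marco was called higher and Adgre1 and Csf1r lower, where 9.72% of all genes tested were called higher and 11.5% lower. The median of the 14 was -0.11 log2 units. Of the 9 monocyte markers, Fn1, which hepatocytes also make, held 79.6% to 95.9% of the sum in every library. The other 8 summed to 11.1 to 11.3 FPKM in control, 35.8 to 127 at day 2 and 21.3 to 23.0 at day 14, so that all operated libraries were above both controls. With Fn1 the sums were 255 to 269, 351 to 638 and 135 to 204 FPKM, with day 14 under control. The 10 neutrophil markers summed to 4.23 to 7.84 FPKM in control, 32.3 to 327 at day 2 and 16.1 to 75.8 at day 14. At day 2, 4 of 8 tested monocyte genes and 3 of 5 tested neutrophil genes were called higher, beside 9.72% of all genes tested. Of the monocyte genes called, 1, Ly6c2, was over 1 FPKM in day 2 libraries only, so its call is no support for a rise. No marker of these 3 lists was at 0 in all libraries, and 2 of the neutrophil list stayed under 1 FPKM in all. Day 2 replicate 2 was highest in the neutrophil sum and in the monocyte sum with or without Fn1. Hmox1 and Srxn1 were highest in replicate 1. Single markers differed in this: Cd68 and the monocyte gene Plac8 were highest in replicate 1, at 26.5 and 36.8 FPKM. Marco was highest in replicate 2 and Clec4f in replicate 4, at 80.4 and 46.7 FPKM. The 8 erythroid markers, whose cells carry haem, summed to 356 to 433 FPKM in control, 371 to 1707 at day 2 and 1275 to 2782 at day 14. Of the 6 tested, 0 were called higher at day 2 and 2 lower, Car1 and Alas2, beside 9.72% and 11.5% of all genes. Alas2 was at 73.1 and 76.6 FPKM in control and at 10.1 to 21.4 at day 2. At day 14 against control 2 were called higher, Hba-a2 and Hba-a1, and 0 lower, beside 5.21% and 4.58%. The part of myeloid and erythroid cells in the level of Hmox1 was not tested.

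**Figure D3:**
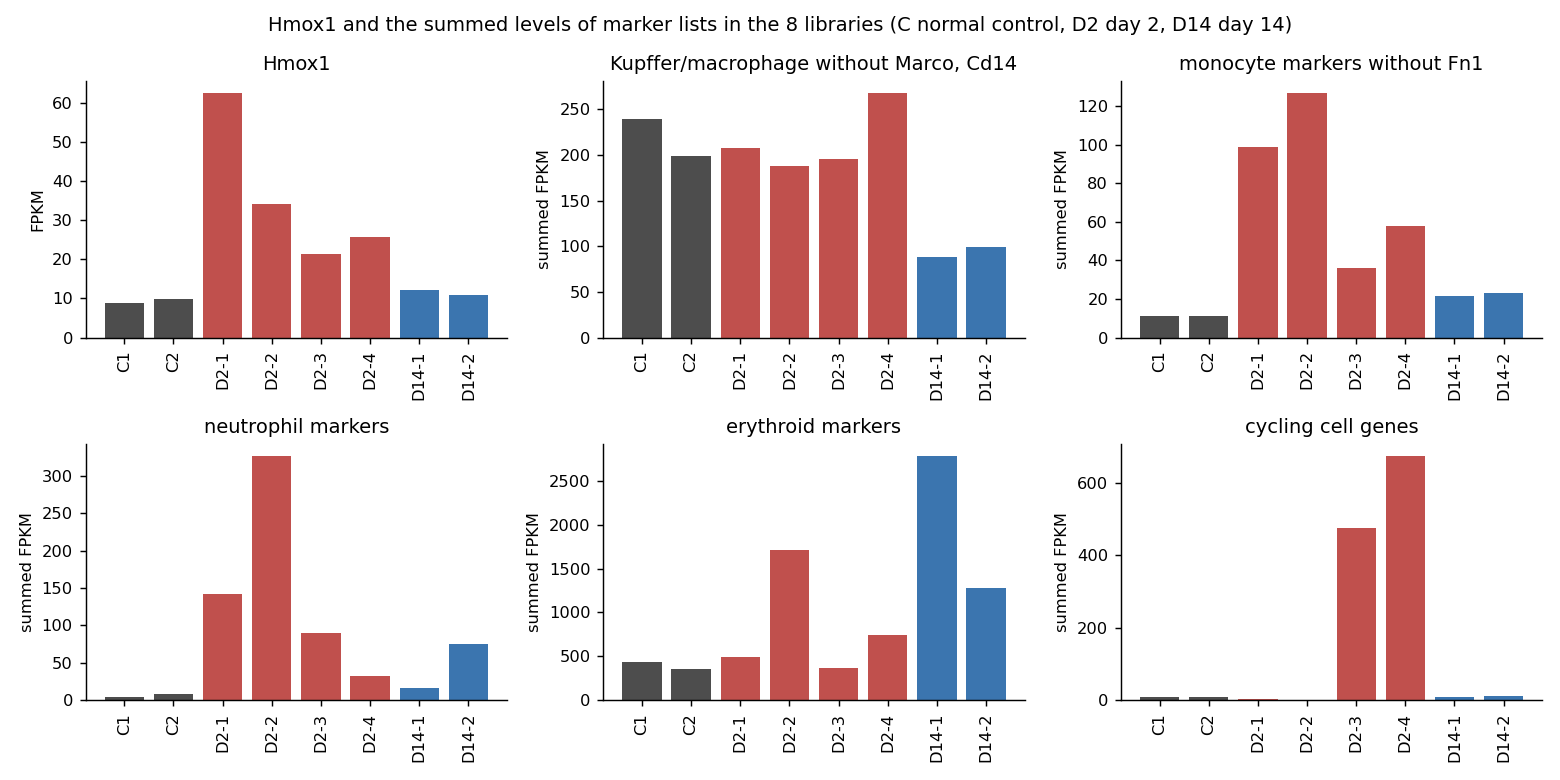
Hmox1 in FPKM and the summed FPKM of 5 lists of marker genes (vertical axes, linear from 0) in the 8 libraries, 1 bar per library, with Fn1 left out of the monocyte list and Marco and Cd14 left out of the macrophage list. These genes were left out after the data had been seen. Monocyte sums were 35.8 to 127 FPKM at day 2 and 11.1 to 11.3 in control, macrophage sums at day 2 overlapped those of control, and the cycling genes were high in day 2 replicates 3 and 4 only.

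Neither subunit of glutamate-cysteine ligase passed at day 2. Gclc, on chromosome 9 at 77754535 to 77794485, was at 82.2 and 89.2 FPKM in control and at 73.1, 28.8, 57.4 and 39.0 FPKM in the day 2 libraries. Every day 2 library was under both controls, but the spread was wide and the log2 change of -0.86 ± 0.41 did not pass (95% interval -1.81 to 0.09; limma adjusted p = 0.166). Gclm, on chromosome 3 at 122245557 to 122270732, was at 81.8 and 84.9 FPKM in control and at 96.6, 83.7, 86.9 and 81.9 FPKM at day 2. Its groups overlapped, with a log2 change of 0.06 ± 0.20 (95% interval -0.39 to 0.52; limma adjusted p = 0.843), and 0.52 after removal of the length and GC trend. Per length, the level of Gclc over that of Gclm was 1.01 and 1.05 in the controls, 0.76, 0.34, 0.66 and 0.48 in the day 2 libraries, and 0.61 and 0.33 in those of day 14. All 6 operated libraries thus lay under both controls in this ratio. It was not tested. The longest transcripts have 3423 bases in Gclc and 5589 in Gclm, and the part of the length trend in the ratio was not tested.

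Slc7a11 encodes the exchanger that imports cystine for glutathione synthesis and is known to be low in normal liver. It was at 0.53, 0.22 and 0.028 FPKM in day 2 replicates 1, 2 and 4 and at 0.0074 FPKM in day 14 replicate 2. In the other 4 libraries it was listed at 0. It never reached 1 FPKM and was left out of the main test, and with no filter its day 2 log2 change was 0.24 ± 0.16 (limma adjusted p = 0.433). Slc3a2, the heavy chain that carries it to the membrane, rose from 17.4 to 35 FPKM on average (0.97 ± 0.21; limma adjusted p = 0.0178).

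Nfe2l2 itself, on chromosome 2 at 75675513 to 75704641, was at 22.7 and 22.3 FPKM in control. It was at 25.6, 70.8, 23.7 and 40.1 FPKM in the day 2 libraries and at 46.3 and 28.9 FPKM at day 14. All 6 operated libraries were above both controls, although day 2 replicates 1 and 3 by little. Neither change passed, at 0.67 ± 0.43 log2 units for day 2 (limma adjusted p = 0.293) and 0.68 ± 0.50 for day 14 (limma adjusted p = 0.406). The libraries of highest Nfe2l2 and of highest Nqo1 were not the same: Nfe2l2 peaked in day 2 replicate 2 and Nqo1 in replicate 3, where Nfe2l2 was lowest of the day 2 group.

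Txnrd1, thioredoxin reductase 1, on chromosome 10 at 82833951 to 82897712, was at 39.2 and 45.2 FPKM in control and at 57.0, 37.1, 63.6 and 42.9 FPKM in the day 2 libraries. Its groups overlapped (0.22 ± 0.26; 95% interval -0.38 to 0.82; limma adjusted p = 0.569). Prdx1, on chromosome 4 at 116685544 to 116700822, was at 694 and 717 FPKM in control and at 526, 413, 971 and 670 FPKM at day 2, with replicate 3 above and the others below both controls. Its change of -0.20 ± 0.54 did not pass (95% interval -1.43 to 1.03; limma adjusted p = 0.808). Processed copies of Prdx1, as of Txn1 and Ftl1, can share reads with it, so these levels are uncertain. G6pdx, glucose-6-phosphate dehydrogenase, which starts the pentose phosphate pathway, lies on chromosome X at 74409483 to 74429194. It was at 1.48 and 1.24 FPKM in control and at 3.59, 1.42, 3.36 and 1.84 FPKM at day 2 (0.54 ± 0.30; limma adjusted p = 0.227). Txnrd1, Prdx1 and G6pdx shared a low value in day 2 replicate 2 and a high one in replicate 3.

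For day 14 against control, Gclm was the 1 gene of 9 that rose and none fell (limma adjusted p under 0.05; 1 higher and 0 lower at an unadjusted p under 0.05), where 9.79% of all genes tested were called, 5.21% higher and 4.58% lower. Gclm was at 161 and 148 FPKM in day 14 replicates 1 and 2, both above all other libraries. Its mean was 1.85 times that of control (log2 change 0.88 ± 0.23; limma adjusted p = 0.0494). This call stood close to the threshold and held in 7 of the 17 settings tried. Over all 17 the log2 change ran from 0.68 to 1.22. Leaving out either control, either day 14 library or day 2 replicate 1, 3 or 4 ended it, at limma adjusted p from 0.063 to 0.268. Groups did not overlap in 3 genes in each direction, against 35.3% and 35.7% of all genes, 70.9% in either direction. Erythroid sums were 2782 and 1275 FPKM in day 14 replicates 1 and 2, above both controls, and their part in the level of Gclm was not tested.

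At day 14 none of the 3 genes that had risen at day 2 passed against control, and their intervals were wide. Nqo1 was at 2.78 and 4.26 FPKM (0.30 ± 0.40 log2 units against control; 95% interval -0.62 to 1.22; limma adjusted p = 0.667). Srxn1 was at 7.11 and 8.62 FPKM, under both controls (-0.68 ± 0.44; 95% interval -1.68 to 0.33; limma adjusted p = 0.34). Hmox1 was at 12.1 and 10.8 FPKM, a little above both controls (0.27 ± 0.45; 95% interval -0.76 to 1.30; limma adjusted p = 0.738).

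In Prdx1 and Gclc the 2 day 14 libraries were far apart. Prdx1 was at 163 FPKM in replicate 1 and 618 in replicate 2 (-1.15 ± 0.62; limma adjusted p = 0.251), and its change was -0.19 without replicate 1 and -2.11 without replicate 2. Gclc was at 97.8 and 49.0 FPKM (-0.30 ± 0.48; limma adjusted p = 0.725), so that replicate 1 lay above and replicate 2 under both controls. Txnrd1 was close in both, at 33.3 and 33.6 FPKM, and under both controls (-0.32 ± 0.30; limma adjusted p = 0.516), and G6pdx was at 0.91 and 1.29 FPKM (-0.17 ± 0.35; limma adjusted p = 0.792).

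From day 2 to day 14, Srxn1, Nqo1 and Hmox1 fell and Gclm rose, 4 of the 9 genes, where 16.1% of all genes tested were called, 7.03% lower and 9.09% higher. This comparison shares libraries with the other two, so its values are not independent of theirs. The log2 changes were -2.57 ± 0.38 for Srxn1 (limma adjusted p = 0.0074), -1.86 ± 0.35 for Nqo1 (0.0142), -1.45 ± 0.39 for Hmox1 (0.0409) and 0.82 ± 0.20 for Gclm (0.0306). The day 14 mean was 0.142 times the day 2 mean for Srxn1, 0.219 for Nqo1, 0.319 for Hmox1 and 1.77 for Gclm. Groups did not overlap in 5 genes in the lower direction and in 1 in the higher, where 20.4% and 21.2% of all genes did so, 41.6% in either direction. The difference for G6pdx was -0.71 ± 0.30 with no overlap of the groups and an unadjusted p = 0.045 (limma adjusted p = 0.137). Without day 14 replicate 1 none of the 4 passed, at limma adjusted p from 0.0895 to 0.215. Srxn1 and Nqo1 passed in 16 of 17 settings, Gclm in 8 and Hmox1 in 7. Prdx1 did not pass (-0.95 ± 0.54; limma adjusted p = 0.251). Its change was -1.90 log2 units without day 14 replicate 2 and 0.013 without replicate 1, each fit with 1 day 14 library left.

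Other genes of the pathway were taken from 8 lists with 126 genes, of which 119 were tested. The lists were chosen with earlier results of these data known, so a share above that of all genes is no independent support. The shares of all genes given here also stand beside the counts of each list below. At day 2 against control 19 rose and 6 fell, which is 16.0% and 5.04% of those tested, beside 9.72% and 11.5% of all genes. At day 14 against control 3 rose and 1 fell, 2.52% and 0.84%, beside 5.21% and 4.58% of all genes. At day 14 against day 2 5 rose and 13 fell, 4.20% and 10.9%, beside 9.09% and 7.03% of all genes. The 119 include 1 gene, Cbr3, that reached 1 FPKM in day 2 libraries only. Without Cbr3, 18 rose at day 2 and 12 fell from day 2 to day 14. Of the 25 called at day 2, 15 kept their call after removal of the length and GC trend. Without control replicate 1 only Gsta1 and Maff of the 25 passed, and without control replicate 2 only Gdf15, Gsta1, Maff and Sesn3. All 25 kept their direction in both cases. Of the 18 called from day 2 to day 14, only Maff passed without day 14 replicate 1 and 6 passed without day 14 replicate 2. Without either control or day 2 replicate 1, 9 passed, and all 18 kept their direction.

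**Figure D4:**
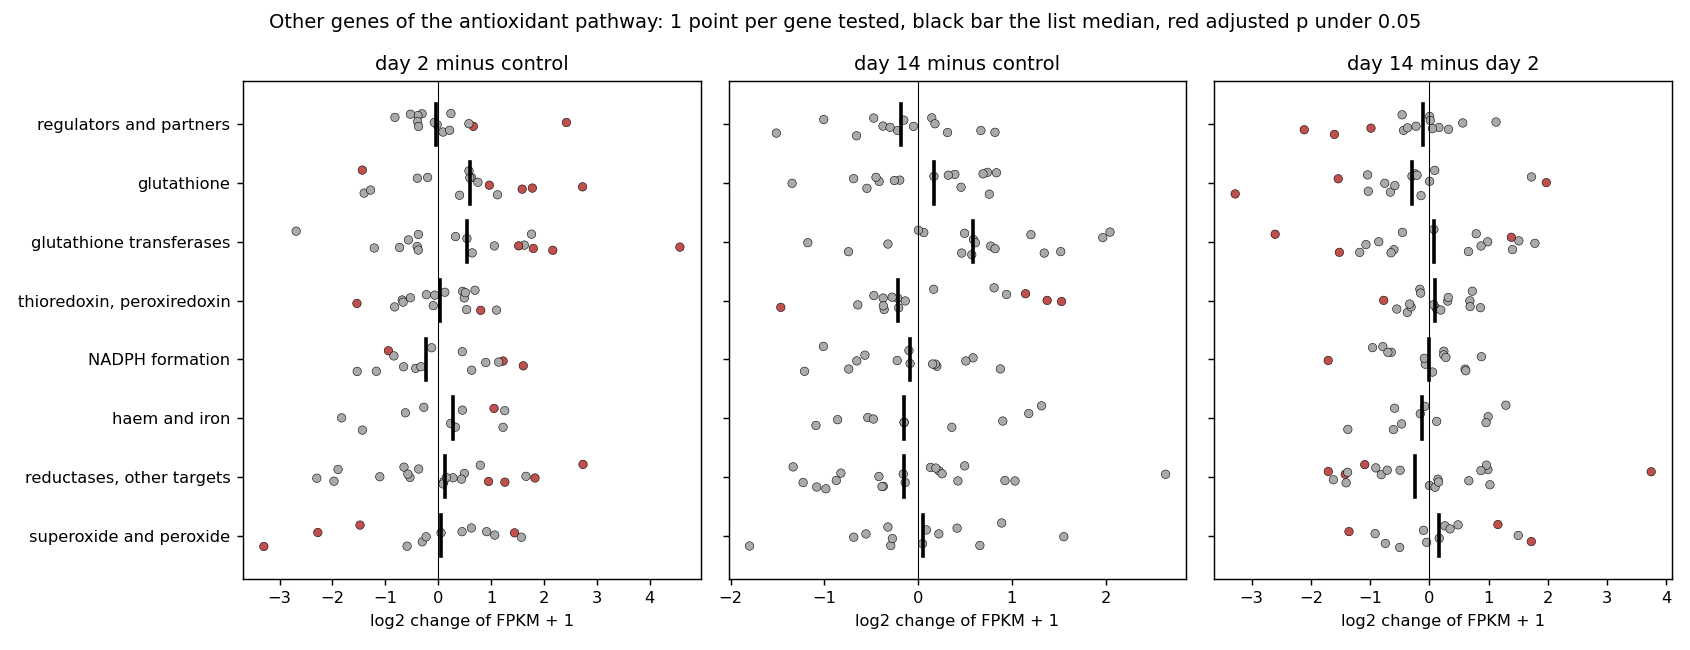
Log2 change of FPKM + 1 (horizontal axis) of the tested genes in 8 lists of the antioxidant pathway (rows, 1 point per gene, jittered vertically) in the 3 comparisons (panels), with the list median as a black bar and genes at an adjusted p under 0.05 in red. Most points are grey, and the medians lie between -0.29 and 0.60 log2 units.

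Among 14 regulators and partners of NRF2, 2 rose at day 2, Maff and Rbx1, and 0 fell (2 higher and 2 lower at an unadjusted p under 0.05; limma). The list median was -0.05 log2 units, against 0.05 over all genes tested. Maff, a small MAF protein that pairs with NRF2, was at 0.95 and 0.90 FPKM in control and at 7.33, 11.4, 8.70 and 10.3 FPKM at day 2, replicates 1 to 4 in turn. It had fallen to 1.71 and 1.11 FPKM at day 14. Its day 2 libraries were far above all others (log2 change 2.42 ± 0.23; limma adjusted p = 0.00169), and the call held in each of the 17 settings for both day 2 comparisons. Keap1, the repressor, was at 16.6 ± 0.580 FPKM in control, 20.1 ± 4.74 at day 2 (n = 4) and 14.2 ± 2.50 at day 14, and passed in no comparison (limma adjusted p = 0.502, 0.658 and 0.229). Its day 2 change of 0.24 was -0.016 after removal of the length and GC trend. Bach1, which competes with NRF2 for its sites, was under both controls in all 4 day 2 libraries, at 4.76 ± 0.596 against 6.50 ± 0.772 FPKM (limma adjusted p = 0.185). Nfe2l1, a related factor, went from 32.8 ± 1.44 to 18.7 ± 5.03 FPKM (-0.82 ± 0.29; limma adjusted p = 0.0794), and passed with quantile scaling (-0.96; limma adjusted p = 0.0409). From day 2 to day 14 Cul3, Dpp3 and Maff fell, Cul3 by 1.60 log2 units. The call of Cul3 held in 16 of 17 settings. That of Dpp3 held in 7 and was lost after removal of the length and GC trend.

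Of 15 tested genes for glutathione synthesis, reduction, use and export, 4 rose at day 2 and 1 fell, with a list median of 0.60. Gpx3, a secreted glutathione peroxidase, rose most, from 2.60 and 2.89 FPKM to 34.8, 37.0, 13.9 and 17.7 FPKM (2.73 ± 0.40; limma adjusted p = 0.00536). Gss, glutathione synthetase, rose by 1.59 ± 0.25 log2 units and the lipid peroxidase Gpx4 by 1.78 ± 0.54. The call of Gpx4 held in 8 of 17 settings and was lost after removal of the length and GC trend. Glo1, which detoxifies methylglyoxal, fell by 1.44 log2 units and also lost its call there, at -0.97. At day 14 against day 2 Gpx3 and glutathione reductase, Gsr, fell, and the canalicular exporter Abcc2 rose by 1.97 ± 0.44. Abcc2 was at 93.0 FPKM on average in control, 41.6 at day 2 and 152 at day 14. Against control neither its day 2 change of -1.28 nor its day 14 change of 0.69 passed (limma adjusted p = 0.0694 and 0.397). Gsr was at 25.9 and 26.1 FPKM in control and at 83.3, 81.4, 37.8 and 43.1 FPKM at day 2, with replicates 1 and 2, those low in cycling genes, above 3 and 4.

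Glutathione transferases conjugate glutathione to electrophiles, and 4 of 17 tested rose at day 2 with 0 falling (1 lower at an unadjusted p under 0.05; limma); the list median was 0.54. Gsta1 was at 1.62 and 4.21 FPKM in control, at 113, 60.3, 161 and 51.8 FPKM in the day 2 libraries and at 15.2 and 12 FPKM at day 14. All day 2 libraries were above all others (4.57 ± 0.49; limma adjusted p = 0.00219), and the change held in each of the 17 settings. Reads shared with near-identical copies such as Gsta2 make the level of Gsta1 uncertain. From day 2 to day 14 Gsta1 and Gstt3 fell while the microsomal transferase Mgst1 rose by 1.38 ± 0.33 log2 units, a call that held in 8 of 17 settings. Mgst1 was at 4879 FPKM on average in control, 3352 at day 2 and 8857 at day 14. Neither time passed against control (limma adjusted p = 0.249 and 0.193). At day 2 Gstt2, Gstt3 and Mgst3 rose by 2.17 ± 0.42, 1.52 ± 0.31 and 1.80 ± 0.39 log2 units. At day 14 none of the list passed against control (5 higher and 0 lower at an unadjusted p under 0.05; limma), and its median was 0.59.

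In the thioredoxin and peroxiredoxin list 1 gene rose and 1 fell at day 2 of 16 tested, with a median of 0.03. Txn1, thioredoxin itself, was at 133 and 128 FPKM in control, at 256, 248, 233 and 186 FPKM at day 2 and at 380 and 379 FPKM at day 14. It was higher than control in all operated libraries and highest at day 14 (0.80 ± 0.23 at day 2, limma adjusted p = 0.0399; 1.53 ± 0.26 at day 14, limma adjusted p = 0.0249). At day 14 Prdx2, a peroxiredoxin abundant in red cells, and the selenoprotein gene Selenow (Sepw1 in the table) rose as well, by 1.15 ± 0.26 and 1.38 ± 0.30 log2 units, and lost their calls after removal of the length and GC trend, as did Txn1 at day 2 (0.66). Erythroid sums were 1275 to 2782 FPKM at day 14 and 356 to 433 in control, and their part in these changes was not tested. Sesn3, a sestrin, fell from 5.90 and 4.77 FPKM to 1.04 to 1.34 FPKM at day 2 and to 1.22 and 1.35 FPKM at day 14 (-1.54 ± 0.19 and -1.46 ± 0.21; limma adjusted p = 0.00311 and 0.02). Sesn2, another sestrin, fell by 0.77 log2 units from day 2 to day 14 (limma adjusted p = 0.0455), a call that held in 5 of 16 settings. Without control replicate 1, control replicate 2 or day 14 replicate 1, none of the 4 genes called at day 14 passed. In each of the other 7 lists none was called at day 14 against control (1 to 5 higher and 0 to 2 lower at an unadjusted p under 0.05; limma).

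Of 14 tested NADPH-forming enzymes 2 rose at day 2 and 1 fell, beside 9.72% and 11.5% of all genes, with a list median of -0.23. Pgd and Pgls, which follow G6pdx in the pentose phosphate pathway, rose and Me1, malic enzyme, fell. The call of Pgls held in 7 of 17 settings and was lost after removal of the length and GC trend. Pgd was at 18.6 and 13.6 FPKM in control and at 69.9, 43.1, 69.4 and 31.3 FPKM at day 2, the same order of high and low libraries as G6pdx except that replicates 2 and 4 changed places. The rise was 1.61 ± 0.37 log2 units (limma adjusted p = 0.0203), and at day 14 Pgd was at 12.4 and 17.7 FPKM. Me1 fell by 0.94 log2 units, from 42.4 ± 6.46 to 22.1 ± 6.74 FPKM, with an adjusted p of 0.0499 in limma, a call that held in 6 of 17 settings.

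Of 10 genes for haem breakdown and iron storage 1 rose at day 2 and 0 fell, beside 9.72% and 11.5% of all genes, with a list median of 0.28. It was the ferritin light chain Ftl1, which went from 3271 to 6963 FPKM on average (1.06 ± 0.31; limma adjusted p = 0.046). Its change was 0.45 after removal of the length and GC trend and no longer passed, and the call held in 6 of 17 settings. In the list of reductases and other detoxifying targets 4 of 20 rose at day 2 and 0 fell (3 lower at an unadjusted p under 0.05; limma), with a median of 0.13. The carbonyl reductase Cbr1 rose by 1.83 ± 0.26, the aldo-keto reductase Akr1b8 by 0.95 ± 0.25, and the stress hormone Gdf15 by 2.74 ± 0.45 log2 units. The fourth, Cbr3, was at 0.26 and 0.61 FPKM in control, 5.15, 2.37, 1.63 and 1.47 FPKM at day 2 and 0.28 and 0.26 FPKM at day 14. It passed the filter on low values through day 2 alone, so its calls are no support for a rise or a later fall. Akr1b8 lost its call after removal of the length and GC trend, and Akr1b8 and Gdf15 fell from day 2 to day 14. Cyp2a5, a cytochrome P450 that NRF2 can induce, was at 103 and 97.3 FPKM in control, 17.5, 114, 136 and 15.6 FPKM at day 2 and 494 and 798 FPKM at day 14. Day 14 was above all others (3.74 ± 0.89 log2 units against day 2; limma adjusted p = 0.0289), but the rise against control of 2.64 ± 1.03 did not pass (limma adjusted p = 0.131) except when day 2 was left out of the fit (limma adjusted p = 0.0235). Reads shared with its close copy Cyp2a4 make its level uncertain.

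Among enzymes that act on superoxide and peroxide, 1 of 13 was called higher at day 2 and 3 lower, beside 9.72% and 11.5% of all genes. The list median was 0.05. Catalase, Cat, which breaks down hydrogen peroxide in peroxisomes, was at 1124 and 1118 FPKM in control and at 244, 166, 335 and 209 FPKM at day 2, replicates 1 to 4 in turn. It stood at 682 and 852 FPKM at day 14. The 3 groups did not overlap, and Cat fell by 2.28 log2 units at day 2 (limma adjusted p = 0.00427) and rose by 1.72 ± 0.31 from day 2 to day 14 (limma adjusted p = 0.013). The peroxisomal urate oxidase Uox fell by 3.30 ± 0.90 and the oxidase Nox4 by 1.48 ± 0.32, while Cyba, a subunit of the phagocyte NADPH oxidase, rose by 1.44 ± 0.33. The call of Uox held in 9 of 17 settings and was lost without day 2 replicate 1 or 2, among others, and that of Nox4 was lost after removal of the length and GC trend. Cyba is a gene of myeloid cells, whose marker sums are given above and whose part in it was not tested, and its change was 0.75 and not called after removal of the length and GC trend. Sod1 was at 924 ± 7.53 FPKM in control, 1449 ± 285 at day 2 and 1738 ± 389 at day 14, and passed in neither comparison (limma adjusted p = 0.143 and 0.11).

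**Figure D5:**
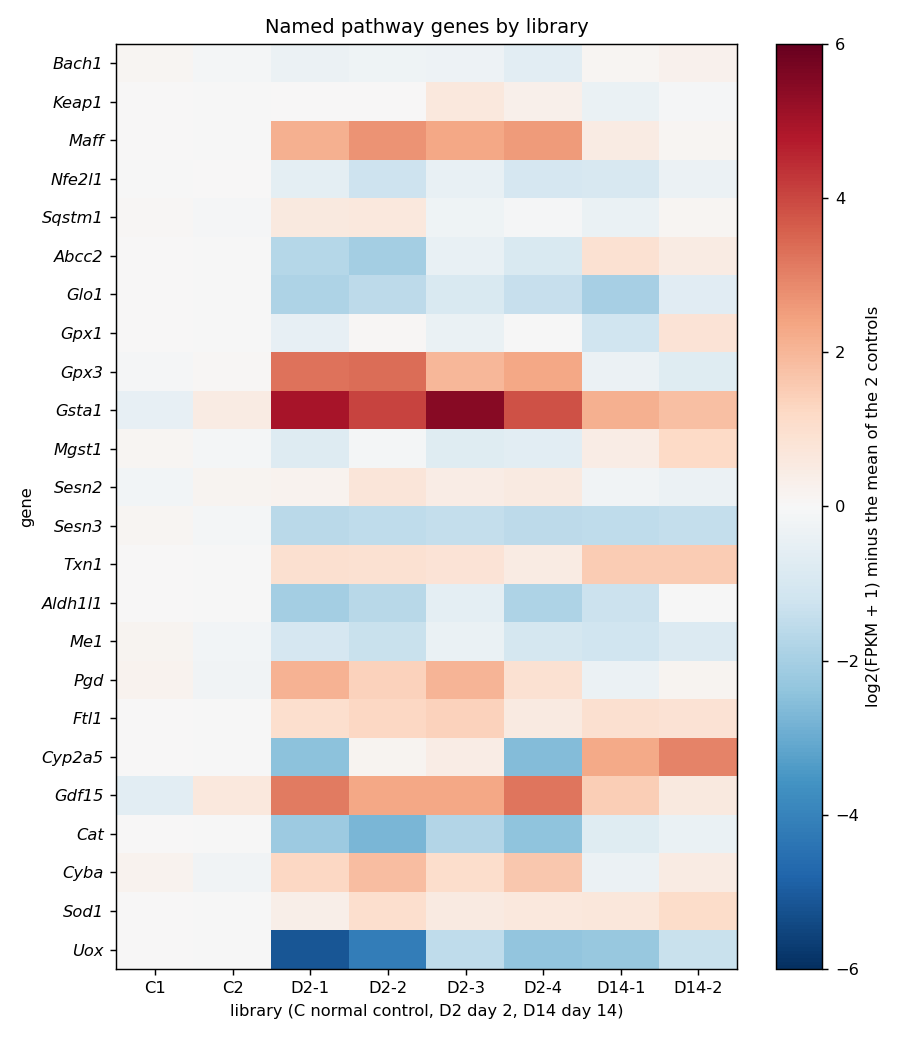
Difference of log2(FPKM + 1) from the mean of the 2 controls (colour, red higher and blue lower) for 24 named genes of the pathway lists (rows) in the 8 libraries (columns). Gsta1, Gdf15 and Maff are red in all 4 day 2 libraries and paler at day 14, Gpx3 is red at day 2 and pale blue at day 14, Cat and Uox are blue at day 2, and Txn1 and Sesn3 keep their sign in all 6 operated libraries.

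Likeness of pattern was measured as the root mean square difference, over the 8 libraries, of log2(FPKM + 1) centred on each gene's mean, among 6864 other named genes with a mean of at least 5 FPKM. Srxn1 was closest to Odc1, ornithine decarboxylase of polyamine synthesis, and Arhgdia, at 0.27 and 0.28 log2 units. Hmox1 was closest to Actb, cytoplasmic beta-actin, at 0.22. Prdx1 was closest to Glrx3, a glutaredoxin, and to the mitochondrial peroxiredoxin Prdx3, at 0.19 and 0.23, both of which also had their lowest value in day 14 replicate 1. Nqo1 was closest to Crip2 and Pgp, at 0.35 and 0.37, and Nfe2l2 to Sympk and Cactin, at 0.24 and 0.25. The nearest genes to Gclc were Slc35d2 and Acbd4, at 0.22 and 0.25, and those to G6pdx were Bak1 and Tmed9, at 0.12 and 0.13. Gclm and Txnrd1 ranged over less than 1 log2 unit and were not matched. No member was among the nearest genes of another because members were left out of the search.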

How the data were processed

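The authors deposited 1 table of gene-level values headed FPKM, with 1 column per library, per the file headers. Tools named in the submitters' processing notes are Cufflinks 2.2.1, HISAT2 2.10, DESeq2 and HTSeq, beside the builds mm9 and GRCm38, without their roles. Which of them made the FPKM values is not given in the sources used here. Read counts are unknown, so no interval from counts was computed.

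Values were transformed to log2(FPKM + 1), keeping genes that reached 1 FPKM in 2 or more libraries. A model with 3 group means was fitted to all 12340 genes in limma 3.58.1 (R 4.3.3), its variance prior following the mean level, on 5 residual and 3.23 prior degrees of freedom. A gene counted as called where its p, adjusted by Benjamini and Hochberg in that comparison, was under 0.05. The pseudocount shrinks changes of low genes. Transcript lengths, GC content (longest transcript) and gene coordinates come from GENCODE release M21 on GRCm38, matched by identifier for 47219 of 47719 genes. In 16 alternatives 1 choice each was changed: the pseudocount to 0.1, no filter, a minimum of 5 FPKM, scaling by median ratio or by quantiles, only the 2 compared groups, no mean-variance trend, removing a length and GC trend (splines, 4 degrees of freedom) and leaving out each of the 8 libraries. The fit was tested on simulated data.

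The members and lists were chosen with earlier results of these data known. The rule named, per list and comparison, the called gene with the largest rise and with the largest fall, or the most abundant gene where none was called, and Keap1, Nfe2l1 and Bach1. Other called genes of a list are named because they were few, and these, Slc3a2, Gss, Gsr, Cul3 and Prdx2 among them, were chosen after their values were seen. A gene of similar pattern to Hmox1 is not reported here. Marker sums without Fn1, Marco and Cd14 were also chosen after the data had been seen. Figures were drawn with matplotlib 3.10.9 under Python 3.11.15.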

Additional observations from a re-analysis of the deposited data

Results flagged for a closer look

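The effects of day 2 and of day 14, each against the same controls, differed for 4 of the 9 tested members, by the test of day 14 against day 2 itself. In that comparison 16.1% of all genes tested were called, 7.03% lower and 9.09% higher. The difference of the 2 effects was -2.57 log2 units for Srxn1, -1.86 for Nqo1 and -1.45 for Hmox1, and it was 0.82 for Gclm. In Srxn1, Nqo1 and Hmox1 both day 14 libraries lay under all 4 day 2 libraries, and in Gclm both lay above them. Among all genes tested, 20.4% were lower and 21.2% higher without overlap of these groups. The calls of Gclm and Hmox1 held in 8 and 7 of 17 settings. None of the members or named pathway genes, 34 in all, had a day 2 library that stood apart from the other 3 by Dixon's criterion on the log2 scale.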

How the results depend on the processing

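The day 2 calls of Nqo1, Srxn1 and Hmox1 held in the 8 alternatives that kept all libraries and without each day 2 or day 14 library, and failed without either control. The number of members called ran over the fits without 1 library from 0 to 3 for day 2 against control, 0 to 1 for day 14 against control and 0 to 3 for day 14 against day 2. For day 14 against control it was 0 with a pseudocount of 0.1, a filter at 5 FPKM or quantile scaling. Gclm was then at limma adjusted p = 0.0531, 0.0505 and 0.101 in turn. For day 14 against day 2 the number of members called was 2, Nqo1 and Srxn1, with quantile scaling or only the 2 compared groups. Over all genes, removal of the length and GC trend gave 1705 calls instead of 2620 for day 2 against control. For day 14 against control the 1208 calls became 494 with that removal, 691 with no filter and 2664 with only the 2 compared groups, and for day 14 against day 2 the 1990 calls became 982 with only the 2 compared groups. Without 1 library these counts ran from 112 to 2837, 1 to 2049 and 48 to 2414. The cause was not tested. Where an arm was left with 1 library, that library was assumed to vary like the other groups.

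Of the named genes, these 8 changed sign, none of them past the threshold with all libraries. Gclm at day 2 was -0.033 with quantile scaling and Keap1 -0.016 after removal of the length and GC trend. Without 1 library, day 14 against control ran from -0.79 to 0.19 for Gclc, -1.20 to 0.81 for Gpx1 and -0.40 to 0.095 for Sqstm1. Day 14 against day 2 ran from -0.32 to 0.34 for Nfe2l2, -1.90 to 0.013 for Prdx1 and -0.12 to 0.45 for Nfe2l1. No paired analysis was possible because replicate numbers of the operated groups are only an accession order. Leaving out day 2 replicate 1 also served as the alternative for its conflicting day label. With 2 libraries in 2 of the 3 groups, a member that did not pass is not shown to be unchanged.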
